A study of Mus musculus with 6 samples.

Results

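Long non-coding RNAs (lncRNAs) that stay in the nucleus or carry small nucleolar RNAs (snoRNAs) in their introns were described in microglia, the resident macrophages of the brain, sorted by their content of lipid droplets. The set named 7 genes, Malat1, Neat1, Kcnq1ot1, Tug1, Meg3, Gas5 and Snhg1, and its members were chosen by their symbol with earlier results for the same contrast in view. Of the 7, 6 had a matching row among the 14148 genes of the table, and all 6 passed the filter on low values (at least 10 normalized counts in at least 3 libraries), which kept 11624 genes. Meg3 was not analysed here. Because these genes were selected on values of this contrast, their differences between the groups are given as descriptions, with no test.

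All 6 libraries came from hippocampi of male C57BL/6 mice 18 months old, and the labels name no other genotype, allele or treatment in either group. Live CD11b+CD45lo cells were sorted by BODIPY, a dye for neutral lipid, into a BODIPY-low fraction (lipid droplet-low, LD-low, 3 libraries) and a BODIPY-high fraction (lipid droplet-high, LD-high, 3 libraries). Each library held about 10000 cells from the pooled hippocampi of 3 mice. The labels do not say which libraries share a pool, so the p-values below reflect the spread of these samples alone, part of which may be technical. The gate marks the myeloid cell surface and the dye, so the 2 fractions are parts of 1 aged population and not separate cell lines or genotypes.

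Malat1 and Neat1 are neighbouring lncRNA genes whose transcripts mark 2 nuclear bodies: Malat1 RNA gathers at nuclear speckles, which hold splicing factors, and the long form of Neat1 RNA is the scaffold of paraspeckles. Kcnq1ot1 is an imprinted antisense RNA that silences neighbouring genes of the Kcnq1 domain on the paternal chromosome, and Tug1 is a broadly expressed lncRNA found in nucleus and cytoplasm. Gas5 and Snhg1 are host genes: box C/D snoRNAs, which guide methylation of ribosomal RNA, are cut from their introns, and the spliced host RNAs are exported and then removed by nonsense-mediated decay when they are translated.

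The 3′ ends of Malat1 and of the long form of Neat1 are shown because they set these RNAs apart from polyadenylated transcripts. Both ends are cut by RNase P, which releases a tRNA-like RNA, and the A-rich tract upstream of the cut is protected in a triple helix with U-rich stretches. A search of each gene and the bases past its end for 5 or more A followed by GCAAAA gave 1 match in each gene. The sequences are those of the mouse genome build NCBIM37 (mm9), the build the reads were mapped to, with the tract in capitals and 75 bases before and 15 bases after it.
Malat1, chr19:5795967-5796074, minus strand: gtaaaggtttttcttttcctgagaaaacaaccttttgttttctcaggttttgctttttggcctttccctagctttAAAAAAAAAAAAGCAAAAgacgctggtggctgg
Neat1, chr19:5824693-5824793, minus strand: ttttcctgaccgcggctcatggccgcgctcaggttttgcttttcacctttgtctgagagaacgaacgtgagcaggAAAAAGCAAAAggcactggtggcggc
The tract was 18 bases in Malat1 and 11 bases in Neat1. The kit primes cDNA with oligo(dT), and how these ends bear on the counts was not tested. The 2 stretches shared a run of 16 identical bases upstream of the tract, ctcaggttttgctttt, which lies in the U-rich part of the RNA. In the gene annotation of that build (GENCODE vM1) the Neat1 tract ended at the annotated 3′ end, and the Malat1 tract ended 292 bases before it. Malat1 (chr19:5795690-5802671) and Neat1 (chr19:5824708-5845478) each formed 1 exon block, lay on the same strand and were 22036 bases apart.

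The snoRNAs inside Gas5 and Snhg1 are shown because they define these genes as hosts. The annotation placed 9 snoRNA genes inside Gas5 (chr1:162964553-162968670, plus strand) and 8 inside Snhg1 (chr19:8797986-8800932, plus strand). Of the printed examples, Snord47 and Snord22 are the hosted snoRNAs that had rows of their own in the table, and SNORD44 is the shortest hosted by Gas5. Capitals mark the C box letters TGATGA, where present, and the last CTGA, the letters of the D box, on the RNA strand.
Snord47 in Gas5, chr1:162968213-162968289, plus strand: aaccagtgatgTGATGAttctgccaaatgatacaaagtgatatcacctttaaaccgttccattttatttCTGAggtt
SNORD44 in Gas5, chr1:162966813-162966872, plus strand: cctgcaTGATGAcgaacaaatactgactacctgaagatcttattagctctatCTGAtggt
Snord22 in Snhg1, chr19:8800356-8800481, plus strand: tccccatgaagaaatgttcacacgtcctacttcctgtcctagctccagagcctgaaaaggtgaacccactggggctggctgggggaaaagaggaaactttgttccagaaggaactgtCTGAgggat
In Gas5, 7 of the 9 snoRNA genes held TGATGA and 9 of 9 held CTGA, with lengths of 60 to 84 bases. In Snhg1, 6 of the 8 held TGATGA and 8 of 8 held CTGA, with lengths of 65 to 126 bases.

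Transcription starts are shown because host genes of snoRNAs often begin with a C followed by a run of pyrimidines, the mark of the growth-regulated TOP (terminal oligopyrimidine) genes. The bases around the start, 30 before and 40 after, come from RefSeq's GRCm38.p6 windows, and capitals mark the unbroken run of C and T that begins with a C at the annotated start. RefSeq windows were matched for 5 of the 6 RNAs with a row.
Gas5, second annotated start, chr1:161035136-161035205, plus strand: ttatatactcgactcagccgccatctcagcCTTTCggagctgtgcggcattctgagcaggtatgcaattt
Snhg1, chr19:8723457-8723526, plus strand: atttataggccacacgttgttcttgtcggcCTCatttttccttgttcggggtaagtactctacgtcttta
Malat1, chr19:5802633-5802702, minus strand: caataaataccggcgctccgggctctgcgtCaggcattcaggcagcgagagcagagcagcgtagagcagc
Tug1, chr11:3648775-3648844, minus strand: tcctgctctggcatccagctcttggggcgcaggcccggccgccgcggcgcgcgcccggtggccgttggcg
The run was 5 bases long at this Gas5 start, 3 at the Snhg1 start and 1 at the Malat1 start, while Tug1 began with A, and Kcnq1ot1 and the first Gas5 start with G. Of 32851 RefSeq windows, 5.81% began with C and a run of 3 or more, and 2.51% with C and a run of 5 or more. The letters TATAAA, searched on both strands, occurred in the Snhg1 window and in 13.6% of all windows, and the Kcnq1ot1 window held CCAAT 3 times on either strand, as 37.4% of all windows did at least once. A match here is a run of letters and not a measured start of transcription in these cells.

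The libraries held between 15895576 reads in genes (LD-high replicate 3) and 38489448 (LD-low replicate 1), with 12987 to 13527 genes showing a read. A normalized count is the number of reads of a gene divided by 1 size factor for the library, and 3 reads corresponded to 2.11 to 5.01 normalized counts. All 12 microglia markers had rows, and their summed level was 1795510 to 2080980 normalized counts in LD-low and 1759030 to 1975630 in LD-high libraries. Over all tested genes, limma (moderated test on log2(normalized count + 1), Benjamini-Hochberg adjusted p under 0.05) called 178 genes higher and 212 lower in LD-high libraries, or 118 and 233 when libraries were scaled to equal totals and 423 and 168 with a correction for gene length. The median log2 change of all tested genes was -0.01.

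Malat1 RNA, the mark of nuclear speckles, was lower in every LD-high library than in any LD-low library. The LD-low libraries held 41776, 54831 and 64045 normalized counts (replicates 1 to 3) and the LD-high libraries 29113, 23098 and 23968. The groups did not overlap, and the spread was wider among the LD-low libraries, where replicate 3 was highest and replicate 1 lowest. The means were 53551 ± 11190 and 25393 ± 3251 normalized counts (SD, n = 3 each), 2.09-fold lower in LD-high, and the log2 change was -1.06 ± 0.13 (SE). Between 14355 and 68951 reads stood behind each value, so counting error is small beside the spread of the libraries. Malat1 alone took 0.0873% to 0.253% of all counts of a library.

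Neat1, the paraspeckle scaffold, was lower in LD-high by less. The LD-low libraries held 760.6, 697.2 and 1035 normalized counts and the LD-high libraries 484.1, 456.9 and 632.8. The groups did not overlap, although LD-high replicate 3 came close to LD-low replicate 2. The means were 831 ± 179 and 525 ± 94.7 normalized counts (SD, n = 3 each), a 1.58-fold difference with a log2 change of -0.66 ± 0.15. The short and long forms of Neat1 share their 5′ part and were counted as 1 gene, so the form that scaffolds paraspeckles was not separated from the short one. With a correction for gene length, the log2 change was -0.41, smaller by more than 1.5 times. Leaving out LD-low replicate 3, the log2 change was -0.49.

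Kcnq1ot1, the imprinted silencer of the Kcnq1 domain, had the lowest log2 change of the 6 RNAs and rested on few reads. The LD-low libraries held 173.3, 119.1 and 212.7 normalized counts and the LD-high libraries 93.8, 79.5 and 51.8. Every LD-high library was below the lowest LD-low library, and the lowest value belonged to the shallowest library. The means were 168 ± 47.0 and 75.04 ± 21.4 normalized counts (SD, n = 3 each), a 2.23-fold difference with a log2 change of -1.16 ± 0.26. The reads behind these values numbered 110 to 247 in LD-low and 31 to 126 in LD-high libraries. No annotated length or position of this gene was used here.

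Tug1 stood apart from the other 5 RNAs. The LD-low libraries held 6388, 5777 and 6266 normalized counts and the LD-high libraries 5643, 6548 and 5944. The groups overlapped, with the highest and the lowest value both in the LD-high group. The means were 6144 ± 324 and 6045 ± 461 normalized counts (SD, n = 3 each), and the log2 change was -0.02 ± 0.07.

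Gas5, the host of snoRNAs for ribosomal RNA that was found in growth-arrested cells, was lower in LD-high with groups that all but touched. The LD-low libraries held 889.7, 1064 and 1377 normalized counts and the LD-high libraries 629.4, 889.2 and 879.9. The lowest LD-low and the highest LD-high value lay less than 1 read apart, a gap smaller than the counts resolve. The means were 1110 ± 247 and 799 ± 147 normalized counts (SD, n = 3 each), a 1.38-fold difference with a log2 change of -0.47 ± 0.15. Without LD-low replicate 3 the log2 change was -0.30, and it was the same to 2 decimals without LD-high replicate 1. Gas5 shares 428 bases with Zbtb37 on the opposite strand. The kit does not mark strand, so reads there cannot be told apart.

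Snhg1, the other host gene, had the fewest reads. The LD-low libraries held 63.2, 86.6 and 123.5 normalized counts and the LD-high libraries 48.4, 60.5 and 50.1. The groups did not overlap, with LD-low replicate 1 just above LD-high replicate 2. The means were 91.1 ± 30.4 and 52.99 ± 6.53 normalized counts (SD, n = 3 each), a 1.65-fold difference with a log2 change of -0.72 ± 0.28. Between 30 and 133 reads stood behind each value, and without LD-low replicate 3 the log2 change was -0.48.

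**Figure D1:**
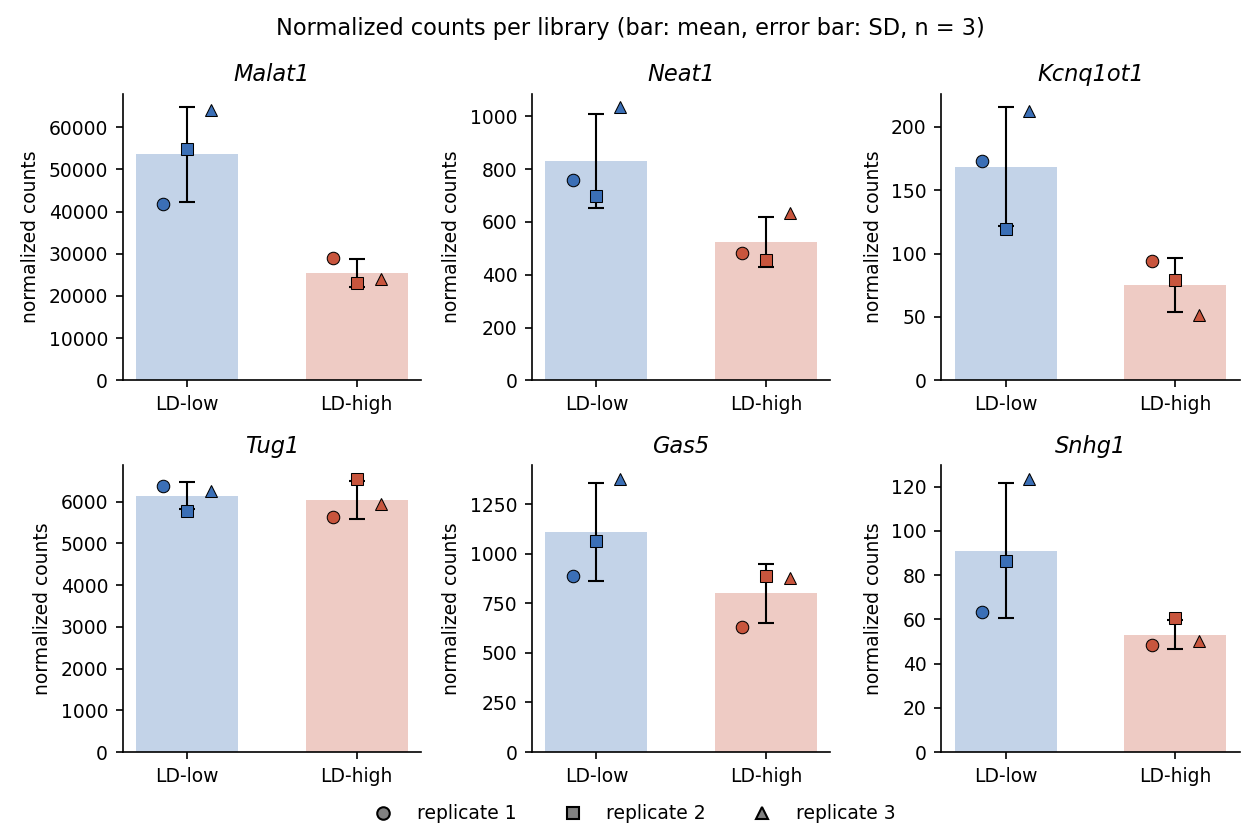
Normalized counts of the 6 RNAs in each library, with replicates 1 to 3 as circles, squares and triangles, the mean as a bar and the SD (n = 3) as an error bar. The LD-high points of Malat1, Neat1, Kcnq1ot1 and Snhg1 lie below their LD-low points, those of Gas5 reach the lowest LD-low point to within 1 read, and those of Tug1 overlap.

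Counted together, 3 of the 6 RNAs were among the genes limma called, where 3.36% of all tested genes were called. Of these 3 (Malat1, Neat1 and Kcnq1ot1), all were lower, against 1.82% of all tested genes called lower, and 0 were higher, against 1.53%. In fits without 1 library, Malat1 was called in 6 of 6, Neat1 in 3 and Kcnq1ot1 in 2. The number called was 0 in limma without trend, where 1 of all 11624 tested genes was called higher and 14 lower. It was 1 with quantile normalization (108 higher and 144 lower over all tested genes). With the length correction it was 1 of 5 (423 and 168 of 10697 genes). EdgeR and DESeq2 each called 3 (167 and 210, and 382 and 333, over all genes), and the replicate block 4 (560 and 530). Groups did not overlap for 5 of the 6 RNAs, all lower in LD-high, and for 0 in the other direction, against 11.7% of all tested genes lower and 12.7% higher without overlap. All 6 log2 changes lay below 0, with a median of -0.69. Because the RNAs were picked from this contrast, nothing is read from these counts. In bulk samples such as these, fewer cells that hold an RNA and less of it per cell cannot be told apart.

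The levels of the RNAs with an annotated length were compared per kilobase of exon, in normalized counts per kilobase. The order from highest to lowest in LD-low libraries was Malat1 (7670 ± 1603), Tug1 (921 ± 48.5), Gas5 (295 ± 65.7), Neat1 (36.6, 33.6 and 49.8 in replicates 1 to 3) and Snhg1 (30.9 ± 10.3), with mean ± SD and n = 3 for the other 4. In LD-high libraries the order was the same, with 3637 ± 466, 906 ± 69.1, 213 ± 39.2, 25.3 ± 4.56 and 18.0 ± 2.22. Only Neat1 and Snhg1 had overlapping ranges in LD-low libraries, 33.6 to 49.8 and 21.4 to 41.9. Within each of these libraries Neat1 was above Snhg1, at 36.6 against 21.4, 33.6 against 29.4 and 49.8 against 41.9. In LD-high libraries Neat1 and Snhg1 spanned 22.0 to 30.5 and 16.4 to 20.5 and did not overlap. The place of Neat1 depends on which form is counted: over the short form of 3170 bases, in place of 20771, its means were 262 in LD-low and 165 in LD-high. The annotated lengths of Gas5 (3760) and Snhg1 (2947) include unspliced forms, so their levels per kilobase are understated for spliced RNA.

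LD-low replicate 3 was the highest LD-low library for 5 of the 6 RNAs, all but Tug1. LD-high libraries shared no such order: the highest was replicate 1 for Malat1 and Kcnq1ot1, replicate 3 for Neat1, and replicate 2 for Tug1, Gas5 and Snhg1. Relative to the LD-low mean, LD-high libraries held 43.1% to 54.4% of Malat1, 55.0% to 76.2% of Neat1 and 30.7% to 55.7% of Kcnq1ot1. The range was 56.7% to 80.1% for Gas5, 53.1% to 66.4% for Snhg1 and 91.8% to 107% for Tug1. Malat1, Neat1, Gas5 and Kcnq1ot1 also varied within the groups more than most genes of their level. The within-group SD of Malat1 was 0.25 on the log2 scale, at percentile 98.6 of the 500 tested genes nearest to it in mean level, that of Neat1 0.28 (percentile 96.8) and that of Gas5 0.30 (percentile 99.0). Kcnq1ot1 had the widest SD of the 6, 0.43 (percentile 90.6). The SDs of Tug1 (0.09, percentile 61.6) and Snhg1 (0.36, percentile 62.4) were nearer the middle.

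**Figure D2:**
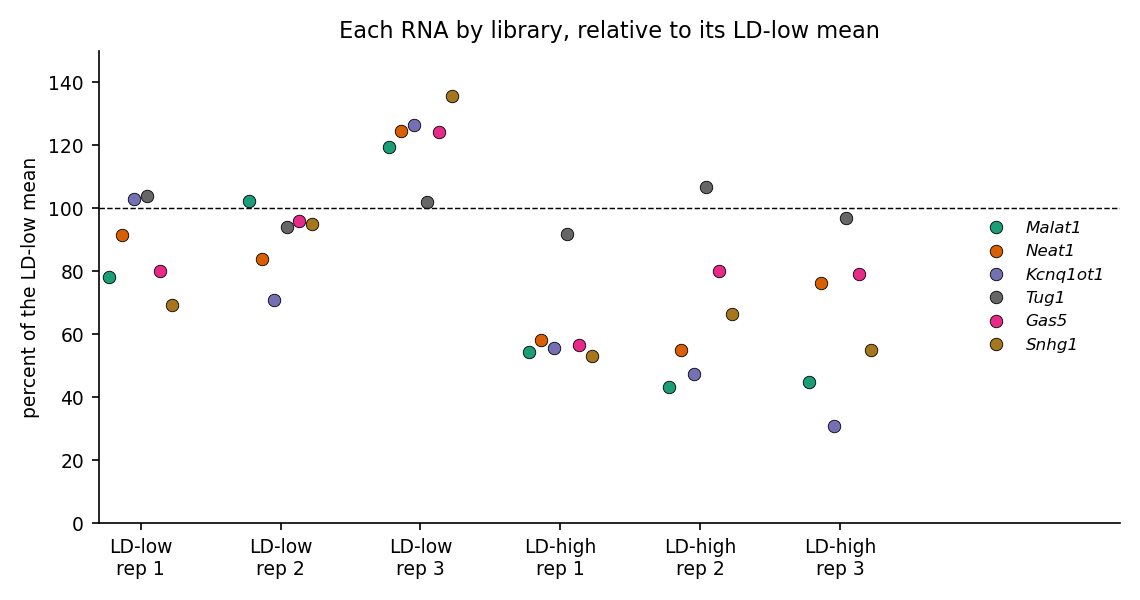
Each RNA in each of the 6 libraries as a percentage of its own LD-low mean (dashed line at 100%), with 1 colour for each RNA. LD-low replicate 3 holds the highest LD-low points of 5 RNAs, and among LD-high libraries only Tug1 reaches the line, at 107% in replicate 2.

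The log2 changes of the 6 RNAs were recomputed under 18 alternative settings (17 for Kcnq1ot1, which had no length), and their ranges are given as a description of how far the values moved. Malat1 ranged from -1.23 without LD-low replicate 1 to -0.92 without LD-low replicate 3. Neat1 ranged from -0.80 without LD-high replicate 3 to -0.41 with the length correction, and Kcnq1ot1 from -1.39 without LD-low replicate 2 to -0.91 without LD-high replicate 3. For Malat1 and Kcnq1ot1, both ends of the range came from leaving out 1 library. Tug1 ranged from -0.08 to 0.02 and lay above 0 in the fits that left out replicate 1 of either group. The host genes Gas5 and Snhg1 had their lowest values without LD-low replicate 1, at -0.62 and -0.96, and their highest without LD-low replicate 3, at -0.30 and -0.48.

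**Figure D3:**
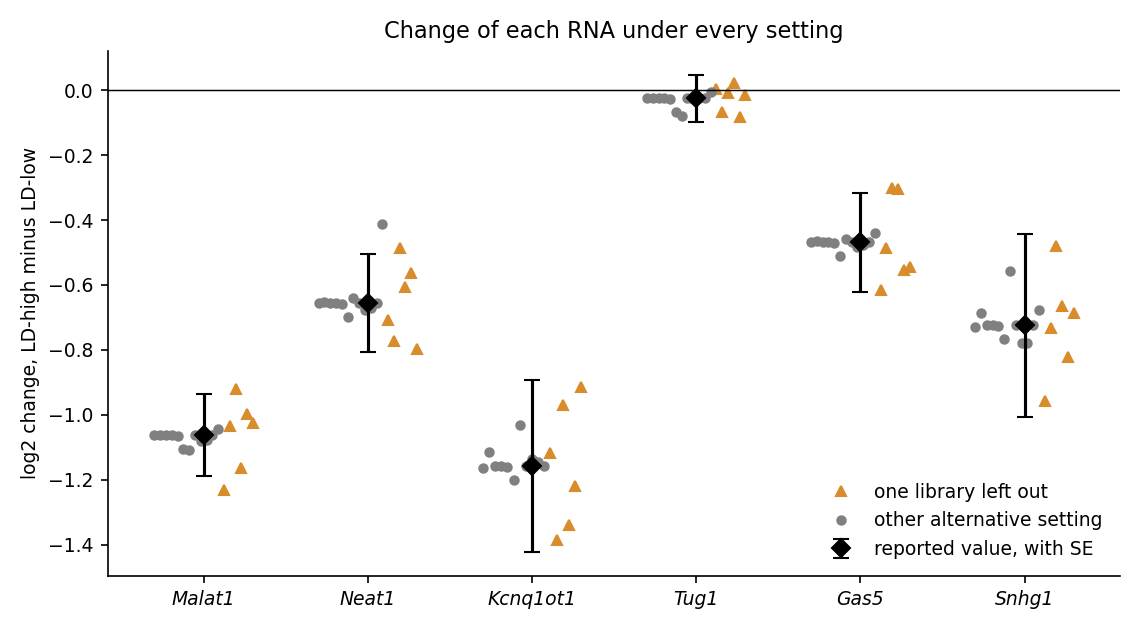
Log2 change (LD-high minus LD-low) of the 6 RNAs under each alternative setting, with the reported value and its SE as a black diamond, fits without 1 library as triangles and other settings as grey circles. Tug1 lies at 0 (-0.08 to 0.02), while Malat1 and Kcnq1ot1 keep to values of -0.91 or lower.

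Markers of other cells were summed in each library. The 6 neutrophil markers with a row, of 10 looked for, summed to 1220, 1583 and 4523 normalized counts in LD-low replicates 1 to 3 and were at 0 in all 3 LD-high libraries, and all 6 fell in limma. The library with the highest neutrophil sum, LD-low replicate 3, was the one that held the most of 5 of the RNAs, and leaving it out gave log2 changes of -0.92 for Malat1, -0.49 for Neat1 and -0.97 for Kcnq1ot1. The 10 choroid plexus markers summed to 369 to 1814 in LD-low and 1728 to 5632 in LD-high libraries, and 3 of 6 tested, Enpp2, Kl and Ttr, rose in limma. Each of these calls was lost in 3 of 6 fits without 1 library (highest adjusted p 0.0888, 0.0960 and 0.105). With DESeq2 the adjusted p was 0.0791 for Enpp2, 0.179 for Ttr and 2.9e-05 for Kl. With a replicate block in limma it was 1.17e-08 for Enpp2, 5.37e-06 for Ttr and 0.000633 for Kl. The 9 of 9 astrocyte markers with a row summed to 6510 to 7867 in LD-low and 8023 to 8903 in LD-high, and 0 of 4 tested passed. Nearly all of that sum was Slc1a3 (means of 7183 and 8463), while the defining astrocyte markers Gfap (14.4 and 5.27) and Aqp4 (3.30 and 0) were near or at 0 and lower in LD-high. The 10 of 11 oligodendrocyte markers summed to 4681 to 4922 and 5492 to 6043. The 9 of 16 neuron markers summed to 166 to 237 and 225 to 243, the 6 of 10 endothelial markers to 1120 to 1550 and 1307 to 1715, and the 8 of 8 border-associated macrophage markers to 254 to 557 and 167 to 416. Their part in the differences of the lncRNAs was not tested.

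Other lncRNAs were described by RefSeq's gene class, which placed 581 genes of the table, 330 of them tested, among lncRNAs. Without the 6 RNAs, 324 were tested: 11 fell (3.4%), 0 rose and 313 did not pass in limma, and 255 (78.7%) had log2 changes below 0, with a median of -0.32. Among all tested genes, 1.82% fell, 51.3% lay below 0 and the median was -0.01. Groups without overlap and lower in LD-high made up 23.1% of the 324, against 11.7% of all genes. Many lncRNAs have low counts, so the same was counted at a mean of at least 100 normalized counts: 10 of 82 other lncRNAs fell (12.2%), 62 (75.6%) lay below 0 and the median was -0.16. Among all 9537 genes at that level, 1.91% fell, 47.9% lay below 0 and the median was 0.01.

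**Figure D4:**
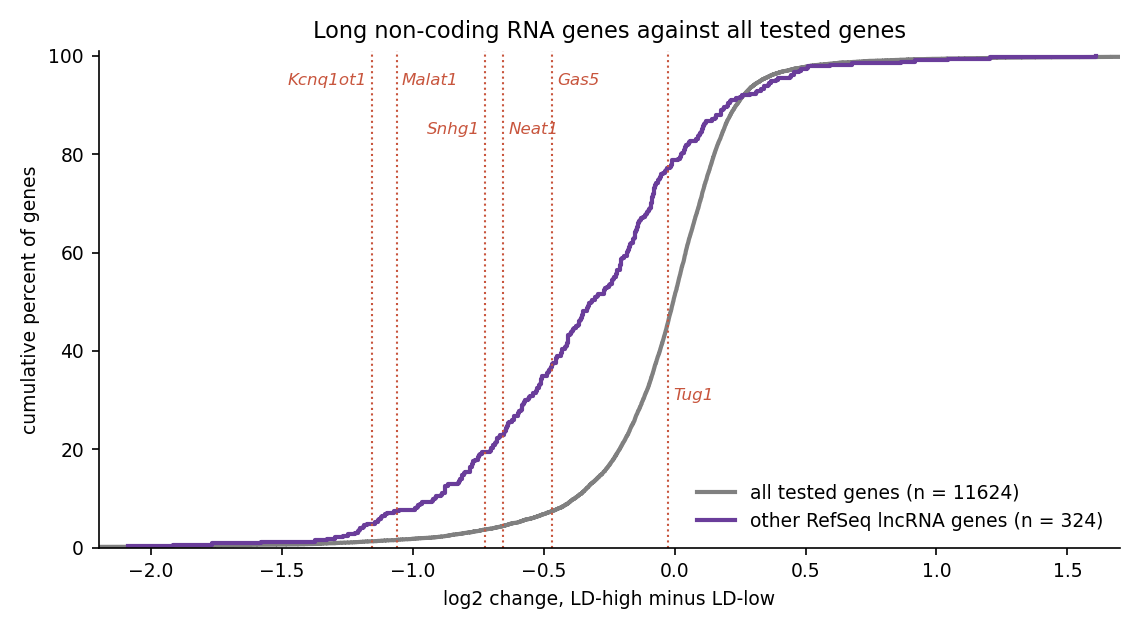
Cumulative percentage of genes (y axis) at or below each log2 change, LD-high minus LD-low (x axis), for all 11624 tested genes in grey and the 324 other tested RefSeq lncRNA genes in purple, with dotted lines at the 6 RNAs. The purple curve lies to the left of the grey curve over most of the range, with medians of -0.32 and -0.01.

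Counts that fell on lncRNA genes took 0.341%, 0.401% and 0.463% of the LD-low libraries and 0.264%, 0.260% and 0.255% of the LD-high libraries. Malat1 was 45.3%, 53.03% and 54.5% of these counts in LD-low and 40.2%, 33.6% and 35.4% in LD-high libraries. Without Malat1 the share was 0.187%, 0.188% and 0.211% in LD-low and 0.158%, 0.172% and 0.165% in LD-high, so the groups did not overlap with or without it. Of the 11 other lncRNAs that fell, all but Ftx were named after their values were seen: 4933439C10Rik, 9330151L19Rik, D730005E14Rik, E330033B04Rik, A530088E08Rik, C920021L13Rik, Gm16023, 5031425E22Rik, Gm20605 and 4632427E13Rik. Their log2 changes lay between -1.21 (C920021L13Rik) and -0.65 (5031425E22Rik). The smallest adjusted p in limma was that of 4632427E13Rik (0.0030), which had means of 810 ± 38.4 and 488 ± 51.9 normalized counts in the 2 groups (SD, n = 3 each) and fell by 0.73.

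Of a list of 36 other regulatory lncRNAs, 12 were tested: Ftx fell, 0 rose and 11 did not pass in limma, with a median of -0.11. Ftx, an X-linked lncRNA beside Xist, had 267 ± 46.6 normalized counts in LD-low against 165 ± 15.5 in LD-high and fell by 0.68 ± 0.17 (log2, adjusted p 0.0429 in limma), a call lost in 5 of 6 fits without 1 library (highest adjusted p 0.179). Firre, another X-linked nuclear lncRNA, had 1286 ± 108 against 970 ± 231 with overlapping groups, for a log2 change of -0.43 ± 0.14. Peg13, an imprinted lncRNA, and 2900097C17Rik had log2 changes of 0.18 ± 0.08 and 0.11 ± 0.08, with overlapping groups like those of Tug1. Of 7 tested snoRNA host genes other than Gas5 and Snhg1, 0 rose and 0 fell, 6 lay below 0, and the median was -0.41. Snhg5, one of them, had a log2 change of -0.41 ± 0.24, near that of Gas5.

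Genes for proteins of the nuclear bodies that Malat1 and Neat1 mark went in both directions for paraspeckles and lay mostly below 0 for speckles. Of 26 tested paraspeckle protein genes, 1 rose, 2 fell and 23 did not pass, with a median of -0.03. Without overlap, 6 of the 26 were higher in LD-high and 3 (11.5%) lower, against 12.7% and 11.7% of all tested genes. Hnrnpk, whose product is needed for paraspeckles, rose by 0.30 ± 0.06 (adjusted p 0.0243 in limma), and the RNA-binding protein gene Hnrnph3 fell by 0.86 ± 0.20 (adjusted p 0.0319 in limma). Leaving out 1 library lost these calls in 4 and 6 of 6 fits, where the adjusted p reached 0.110 and 0.131. Nono, whose product is a core paraspeckle protein that binds Neat1, and Ewsr1 did not pass, at 0.19 ± 0.07 and -0.20 ± 0.11. Of 27 genes for proteins of nuclear speckles, the bodies where Malat1 RNA gathers, 1 fell and 26 did not pass. The 27 had a median of -0.15, against -0.01 for all genes, with 24 (88.9%) below 0, against 51.3%, and 8 (29.6%) lower without overlap, against 11.7%. This list, like the others, was chosen with earlier results of these data known, so nothing is read from these shares. The speckle gene that fell was Rbm25, a splicing regulator, by 0.41 ± 0.10 (adjusted p 0.0408 in limma), lost in 5 of 6 fits without 1 library (highest adjusted p 0.179). The 3 most abundant genes of the list, Sf3b1, Rbm39 and Srsf5, did not pass, at -0.15 ± 0.07, -0.03 ± 0.07 and -0.42 ± 0.12. Of 10 genes of RNase P and tRNA end-processing, which make the 3′ ends of Malat1 and of the long form of Neat1, 0 rose and 0 fell, with a median of 0.04.

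Genes of the Kcnq1 domain, in which Kcnq1ot1 acts in cis, had a median log2 change of 0.02, and 0 of 7 passed in either direction. They were listed by domain, and whether Kcnq1ot1 silences each of them in these cells was not tested. The most abundant of them were Cd81, a tetraspanin gene, and Nap1l4, a histone chaperone gene, at 0.12 ± 0.08 and 0.04 ± 0.07. Kcnq1 itself was not analysed here. Of 12 tested genes of Polycomb repressive complex 2 and of the G9a methyltransferase, whose products Kcnq1ot1 recruits, Rbbp4 rose by 0.42 ± 0.07 (adjusted p 0.0057 in limma, called in all 6 fits without 1 library) and 11 did not pass, with a median of -0.02. The Dlk1-Dio3 domain, home of Meg3, had 1 gene with a row and 0 tested.

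The genes that serve the host RNAs were counted list by list. Of 18 genes for snoRNP proteins and their assembly, which package the snoRNAs of Gas5 and Snhg1, 0 rose and 0 fell, with a median of 0.06. Of 15 genes of nonsense-mediated decay and the exon junction complex, which limits spliced Gas5 RNA, 1 fell and 14 did not pass, with a median of -0.07. The one that fell was Smg1, the kinase that starts the decay, by 0.62 ± 0.13 (adjusted p 0.0214 in limma, lost in 3 of 6 fits without 1 library, highest adjusted p 0.102). Gas5 RNA can also bind the glucocorticoid receptor, and of 7 tested genes for that receptor and its targets 0 rose and 0 fell, with a median of -0.01. Of 8 tested genes of the p53 pathway, with which several of these lncRNAs have been linked, Cdkn1a fell and 7 did not pass. Cdkn1a, a cell cycle inhibitor gene, held 513 ± 57.7 normalized counts against 250.5 ± 52.02 and fell by 1.05 ± 0.15 (adjusted p 0.0030 in limma). It was called in all 6 fits without 1 library, while limma without trend gave an adjusted p of 0.144. The neutrophil marker genes moved in the direction of the genes that fell here, and their part was not tested.

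**Figure D5:**
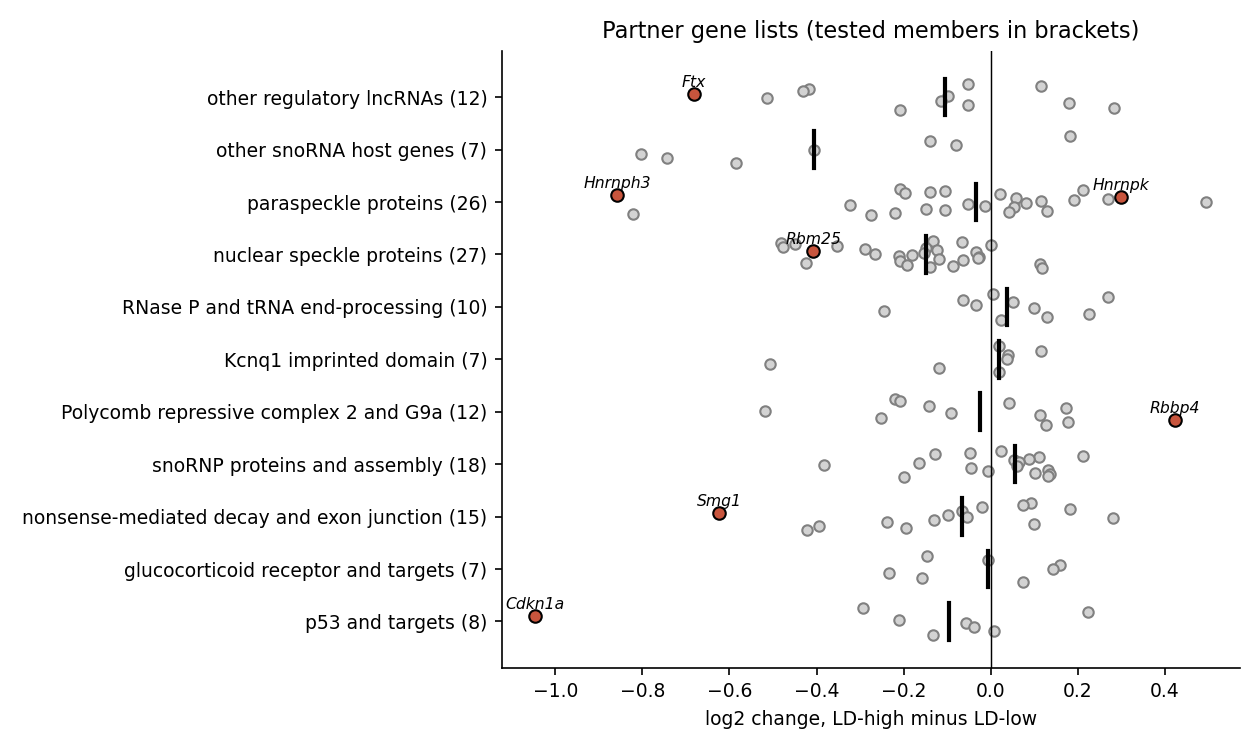
Log2 change (LD-high minus LD-low) of each tested gene of the gene lists, with the number tested in brackets. Genes past the threshold in limma are labelled red points and other genes grey points. The median of each list is a black bar, over all its tested genes. 1 paraspeckle gene is not drawn, and the medians of 11 lists lie between -0.41 (other snoRNA host genes) and 0.06 (snoRNP proteins and assembly).

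The genes next to the RNAs that are named here did not pass the test. Frmd8, 4223 bases from Neat1 and on the side away from Malat1, had a log2 change of 0.11 ± 0.09. Slc3a2, an amino acid transporter subunit gene that starts 126 bases from Snhg1 on the opposite strand, had a log2 change of -0.04 ± 0.08, and Wdr74, on its other side, one of -0.21 ± 0.11. Zbtb37, which overlaps Gas5, had a log2 change of -0.15 ± 0.19. Beside Tug1, which itself showed overlapping groups, Morc2a lies 681 bases away on the opposite strand and held 2062 ± 162 against 1666 ± 86.1 normalized counts, with a difference of -0.31 ± 0.08 on the log2 scale that did not pass (limma adjusted p 0.0543). Smtn, on the other side of Tug1, had a log2 change of -0.53 ± 0.27.

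The hosted snoRNAs themselves were near the floor of 3 reads. For Snord47, in Gas5, the LD-low libraries gave 3.51, 6.50 and 4.64 normalized counts and the LD-high libraries 8.94, 8.96 and 8.35. For Snord22, in Snhg1, the values were 0.702, 5.41 and 3.72 against 2.23, 3.36 and 0. Both failed the filter on low values. Mature snoRNAs carry no poly(A) tail, and the reads counted for them overlap their hosts, so these values are not levels of the mature snoRNAs.

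As a description over the 6 libraries, the 2 tested genes whose log2 levels followed each RNA most closely were listed by Pearson's r, with both groups in the same series of values. They were Snrnp70 (r = 0.996) and Setd5 (r = 0.994) for Malat1, Sat2 (r = 0.994) and Csf2ra (r = 0.991) for Neat1, and Sft2d3 and Rnf20 (r = 0.993 each) for Kcnq1ot1. For Tug1 they were Gm17769 (r = 0.992) and Cd47 (r = 0.977), for Gas5 Pisd-ps2 (r = 0.996) and Fam160a2 (r = 0.993), and for Snhg1 Csmd3 (r = 0.995) and Vrk3 (r = 0.994). The number of tested genes with r above 0.95 was 103 for Malat1, 85 for Gas5, 52 for Snhg1, 47 for Neat1, 45 for Kcnq1ot1 and 9 for Tug1. With 6 libraries in 2 groups, any gene that separates the groups in the same order gives a high r. Snrnp70, which encodes a protein of the U1 snRNP, gave 1114, 1208 and 1247 normalized counts in the LD-low libraries, against 985.4, 950.8 and 946.7 in the others.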

How the data were processed

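Microglia were measured by RNA-seq in 6 libraries (3 LD-low, 3 LD-high), made with a Smart-Seq v4 kit and Nextera XT tagmentation per the labels' protocols. Per the submitters' processing notes, FastQC 0.11.4 checked the reads, STAR 2.5.1b aligned them to mm9, and DESeq2 was used. The annotation and strand setting of the counting were not given in the sources used here. As deposited, values are a normalized signal for each gene, in which all counts of a library are divided by the same size factor. Whole reads were recovered for 100% of the values within a tolerance of 0.01 reads, with 15895576 to 38489448 reads in genes per library. The table lists genes with at least 5 reads over the libraries, and 22 rows carry a date in place of a symbol.

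The members and lists were chosen with earlier results of these data known. Log2(value + 1) was fitted with limma 3.58.1 (R 4.3.3) over 11624 genes with at least 10 normalized counts in at least 3 libraries, which left out 2524 genes, with Benjamini-Hochberg adjustment and a threshold of 0.05. Named were the members, list genes that passed or at most the 3 highest of a list, flanking and overlapping genes, and the 2 most alike genes per member. A few genes that this rule takes in are not reported here. The fit was tested on simulated data. Alternatives numbered 18: other pseudocounts, filters and scalings, limma without trend, edgeR 4.0.16 and DESeq2 1.42.0 on the recovered reads, a replicate block, a length correction and leaving out each library. Gene models and mm9 sequences (GENCODE vM1, NCBIM37) were read with pysam 0.24.0. RefSeq gene classes matched 13339 rows by symbol. An error after ± is an SD for levels and an SE for log2 changes.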

Additional observations from a re-analysis of the deposited data

How the results depend on the processing

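The counts of all genes called by limma (178 higher, 212 lower in LD-high libraries) stayed within 1.5 times with other pseudocounts and filters, with TMM factors and with edgeR on the recovered reads (167 and 210). Equal totals gave 118 higher, quantile normalization 108 and the length correction 423. Limma without trend gave 1 higher and 14 lower, DESeq2 on the recovered reads 382 and 333, and the replicate block 560 and 530. Leaving out each library in turn gave 17 to 212 higher and 35 to 209 lower; both counts were lowest without LD-low replicate 3. Same-numbered libraries deviated together with r of 0.161, 0.132 and 0.0641 (across genes, which are not independent). Libraries of different numbers had r between -0.127 and -0.0171. Each thus correlated best with its own number, a hint from the data and not the design. The labels do not state a pairing, and the main fit left the number out. The replicate block is the fit that takes it in. Of the 6 RNAs, Tug1 changed sign in 2 fits without 1 library, and the others kept theirs under the alternatives run, which their selection on this contrast leaves without weight. Depth limits Kcnq1ot1 and Snhg1, with as few as 31 and 30 reads in LD-high replicate 3. The cause of these shifts was not tested.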

Other observations

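Genes that RefSeq classes as snoRNAs had 61 rows in the table and 9 passed the filter on low values. All 9 had log2 changes below 0 (51.3% of all tested genes did), with a median of -0.99 against -0.01. In limma 0 of them passed, and 4 (44.4%) were lower in LD-high libraries without overlap, against 11.7% of all tested genes. Snora28, named after its values were seen, had 188.8, 228.4 and 208.1 normalized counts in LD-low and 134.1, 166.9 and 160.3 in LD-high libraries. Both hosted snoRNAs of Gas5 and Snhg1 with a row lay outside these 9.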
